A study of Homo sapiens with 54 samples.

Results

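Palbociclib, which blocks the kinases CDK4 and CDK6 of the cell cycle, was compared with its own controls in SW48, an established human colorectal cancer cell line. The comparison rests on 6 of the 54 libraries of the series, 3 labelled control and 3 labelled palbociclib, taken by their column labels from the second of the series' count tables. All 6 came from SW48 cells grown in serum-supplemented DMEM with antibiotics, and the sources used here give no dose, length of treatment or control vehicle. The same table holds 3 palbociclib and 3 control libraries of SW620, another colorectal cancer line, and 3 SW48 libraries treated with trametinib, which blocks MEK1 and MEK2. They serve below to show where the response of SW48 to palbociclib differed. The labels do not state whether replicate libraries are separate cultures, so the p-values measure only the spread between these libraries, which may be technical.

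As background, D-type cyclins bind CDK4 and CDK6, and these kinases phosphorylate the retinoblastoma protein RB. Unphosphorylated RB and its relatives hold back the E2F transcription factors, which switch on genes for DNA replication, and the related DREAM complex holds back the later genes for mitosis. Palbociclib keeps RB in its repressing form, so that cells with working RB stop in the G1 phase. The kinases are also tied to growth and metabolism through mTORC1, MYC and lysosome biogenesis. The gene lists below, those of these processes included, were chosen with earlier results of these data known.

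The libraries held 8150642 to 9580735 counts each, from 3′ end sequencing in which each transcript gives reads mainly near its polyadenylated end, whatever its length. Values below are CPM, counts scaled to the size of the library and, except for the marker sums of this paragraph, adjusted by TMM. A level in bulk cells cannot tell fewer cells that express a gene from less RNA per cell. The label of a colorectal epithelial line was checked against 11 markers. EPCAM, CDH1, CDX2, KRT8, KRT18 and KRT19 had 892 or more counts in every library, while KRT20, GPA33 and LGALS4 had 0 to 6. CDH17 had 57 to 116 counts, and VIL1 had 0, 6 and 0 in controls and 28, 47 and 21 with palbociclib. The 11 markers summed to 4110 to 4290 CPM in controls and 4990 to 5470 CPM with palbociclib. Summed levels of 8 blood and endothelial markers were 3.97 to 4.78 CPM over the 6 libraries, with CD3E and HBB at 0 in all of them, and 6 gastric and 7 breast markers summed to at most 5.23 and 6.97 CPM. Mesenchymal markers summed to 19.8 to 20.9 CPM in controls and 35.5 to 36.3 CPM with palbociclib, a move whose part in the results was not tested.

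Mitochondrial ribosomal RNA made up 0.97%, 1.45% and 1.6% of the counts in the controls and 2.93%, 3.49% and 4.52% with palbociclib. The 2 groups did not overlap in this share. Leaving the mitochondrial ribosomal and transfer RNA genes out before scaling gave 3608 higher and 3697 lower genes, against 3596 and 3702 with them.

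Of 12690 genes tested with edgeR's quasi-likelihood test and Benjamini-Hochberg adjustment, 57.5% passed an adjusted p of 0.05. The 3596 genes that rose were 28.3% of those tested and the 3702 that fell were 29.2%, and these shares are the background against which every gene list below is read. The median log2 fold change over all tested genes was 0.01, with quartiles of −0.38 and 0.43. Changes of at least 2-fold were fewer, 901 upward and 639 downward. Treated and control libraries did not overlap for 63.3% of the tested genes, so separation of the groups alone does not set a gene apart. The largest changes below are those among genes whose average log2 CPM was 4 or more and with no overlap between groups; genes of low counts with larger fitted changes are not ranked.

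FAM129A, also called NIBAN1, which is induced by cell stress and lies at chr1:184791032-184974508 of GRCh38.p14, had the largest fall within these limits. It was at 183, 167 and 203 CPM in the controls and at 1.01, 1.12 and 0.723 CPM with palbociclib, a log2 fold change of −7.57 (SE 0.15, adjusted p = 7.6e-14). CREB5, a transcription factor of the CRE-binding family at chr7:28299321-28825894, had 54.1, 61.3 and 68.5 CPM in controls and 0, 1.12 and 0.482 CPM with the drug (−6.8, SE 0.28, adjusted p = 8.4e-11). INHBE, the activin E subunit, went from 29.7, 30.1 and 33.6 CPM to 1.01, 1.45 and 0.12 CPM (−5.13, SE 0.27). Transcripts of these 3 genes were near the limit of detection in every treated library. HKDC1, a hexokinase relative, was at 40.6, 56.1 and 45.6 CPM and then at 2.58, 1.45 and 2.05 CPM (−4.54, SE 0.19). Further large falls were those of LAMP3, a lysosomal membrane protein of stressed cells (−3.35), SLIT1, an axon guidance ligand (−3.26), AKNA, an AT-hook protein (−3.18), and the long noncoding RNA LINC01133 (−3.13). The other 6 of the 14 largest falls within the limits, DDIT4, CHAC1, ATF3, PCK2, ASNS and DDIT3, are described with the ATF4 programme.

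The largest rise within the same limits was that of LPPR2, also called PLPPR2, a phospholipid phosphatase relative at chr19:11355432-11365698. It was at 3.52, 5.74 and 3.57 CPM in controls and at 42, 35.3 and 38 CPM with palbociclib (3.16, SE 0.16, adjusted p = 9.5e-10). CRIP2, a LIM-domain protein, rose from 22.3, 24.8 and 20.1 CPM to 146, 127 and 138 CPM (2.61, SE 0.09). APLP1, a relative of the amyloid precursor protein, rose by 2.68 (SE 0.2). Further rises were those of VAMP8, a SNARE of endosomes and lysosomes (2.16), CTSV, a lysosomal cysteine protease (2.13), TMEM54 (2.07), PLIN3, a lipid-droplet coat protein (2.02), and MOSPD3 (2.01). TRNW, the mitochondrial tryptophan tRNA, was the only mitochondrial gene among the 14 largest rises within these limits (2.46, SE 0.22), and it moved with the mitochondrial RNA share given above. MXD4, ID3, SESN3, SMPD1 and ALDOC complete the 14 and are described with their groups.

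**Figure D1:**
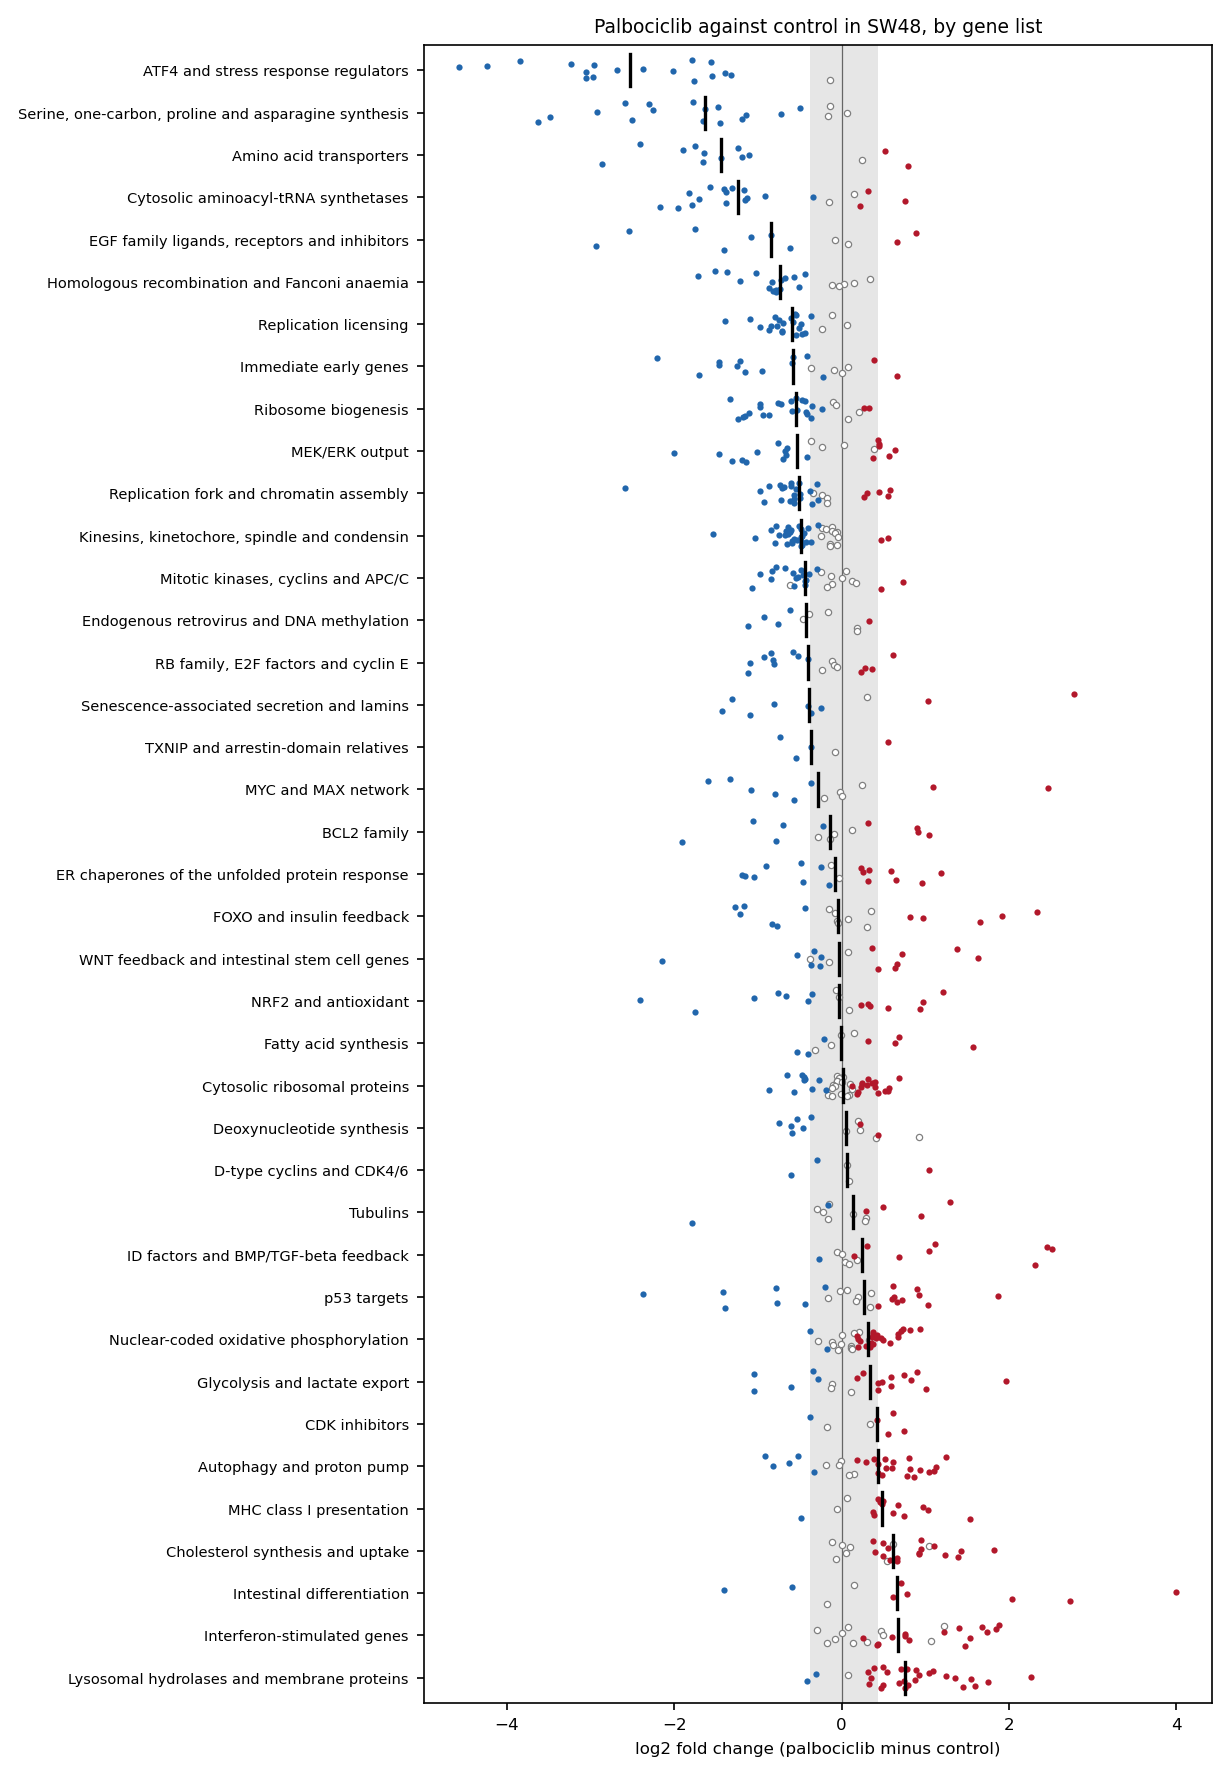
Log2 fold change of palbociclib against control in SW48 for every tested member of 39 gene lists, ordered by the list's median (black bar). Red and blue points rose and fell past the threshold, open points did not pass, and the grey band spans the quartiles of all tested genes (−0.38 to 0.43); the ATF4 list (median −2.53) stands lowest and the lysosomal list (0.76) highest.

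CDK4, the drug's target, fell modestly and CDK6 did not pass. CDK4 was at 221, 246 and 216 CPM in controls and at 147, 156 and 149 CPM with palbociclib, and fell by 0.6 on the log2 scale (SE 0.07, adjusted p = 3.5e-06). CDK6 was at 171, 175 and 192 CPM and at 181, 191 and 201 CPM, a difference that did not pass (0.09, SE 0.07, adjusted p = 0.28). For CDK6 the groups overlapped, and for CDK4 every treated library was below every control. Among the D-type cyclins, CCND1 had 800, 829 and 871 CPM in controls and 686, 686 and 662 CPM with the drug (−0.3, SE 0.06, adjusted p = 4.1e-04). CCND2 had 367, 324 and 387 CPM and then 366, 384 and 379 CPM (0.07, SE 0.07, adjusted p = 0.42). CCND3 rose from 21.8, 21.6 and 21.2 CPM to 51.3, 38.8 and 42.8 CPM (1.04, SE 0.11, adjusted p = 1.4e-06). So 1 of the 5 genes rose, 2 fell and 2 did not pass.

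In the list of RB family, E2F factors and cyclin E with its kinase, 9 of 17 genes fell, 4 rose and the median was −0.4. RB1, which encodes RB, was at 54.8, 50.8 and 47.3 CPM and fell to 37.7, 33.6 and 30.8 CPM (−0.58, SE 0.09, adjusted p = 8.2e-05). RBL1, encoding the relative p107, fell from 22.9, 16 and 18.4 CPM to 10.2, 11.3 and 10.1 CPM (−0.85, SE 0.15). RBL2, encoding p130, the pocket protein of resting cells, rose from 22.3, 22.3 and 25 CPM to 35.1, 34.3 and 37.8 CPM (0.62, SE 0.1, adjusted p = 6.1e-05). The 3 pocket protein genes thus did not move one way.

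The activator E2F2 went from 28.1, 27.1 and 28.8 CPM to 13.7, 16.1 and 14.3 CPM (−0.93, SE 0.11). E2F1 fell by 0.52 (SE 0.09) and E2F3 by 0.4 (SE 0.07). Among the repressor E2Fs, E2F6 fell by 1.09, E2F4 by 0.82 and E2F7 by 0.81, while E2F5 and E2F8 did not pass. CDC25A, the phosphatase that activates CDK2, had the largest fall of the list, from 69.5, 65.5 and 70.4 CPM to 33.4, 31.4 and 29.8 CPM (−1.12, SE 0.08, adjusted p = 2.4e-08). Cyclin E did not follow the E2Fs. CCNE1 was at 18, 17.5 and 14.9 CPM in controls and rose to 20.3, 20.8 and 23.9 CPM (0.36, SE 0.12, adjusted p = 0.021), and CCNE2 did not pass (−0.23). CDK2, the partner of cyclin E, rose by 0.23 and TFDP2, an E2F dimer partner, by 0.28, whereas its relative TFDP1 did not pass. The CCNE1 call was lost without control replicate 3 (0.27, adjusted p = 0.11) and without palbociclib replicate 3 (0.28, adjusted p = 0.093). The CDK2 call was lost without control replicate 3 (0.17, adjusted p = 0.095) and without palbociclib replicate 1 (0.16, adjusted p = 0.1). Without control replicate 3 the number of the list that rose was 2.

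Of the 7 CDK inhibitor genes, 4 rose, 1 fell and 2 did not pass, with a median of 0.42. CDKN1A, which encodes p21 and is a target of p53, was at 294, 290 and 288 CPM and rose to 490, 437 and 414 CPM (0.62, SE 0.07, adjusted p = 2e-06). In a fit of all 18 libraries of SW48 and SW620 this call was lost (0.6, adjusted p = 0.2), and 2 of the 7 rose. CDKN2C, encoding the CDK4/6 inhibitor p18, rose from 8.69, 7.55 and 4.66 CPM to 12.2, 11.4 and 11.6 CPM (0.75, SE 0.2, adjusted p = 0.0053). CDKN2D (p19, 0.56) and CDKN1C (p57, 0.42) also rose. The CDKN2D call was lost in the fit of all 18 libraries (0.54, adjusted p = 0.062), and the CDKN1C call without control replicate 2 (0.3, adjusted p = 0.066). CDKN1B, encoding p27, fell from 32.2, 31.3 and 30.1 CPM to 23.1, 24.8 and 24 CPM (−0.38, SE 0.09, adjusted p = 0.0029). CDKN2A (0.34, adjusted p = 0.091) and CDKN2B (−0.18, adjusted p = 0.33) did not pass.

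**Figure D2:**
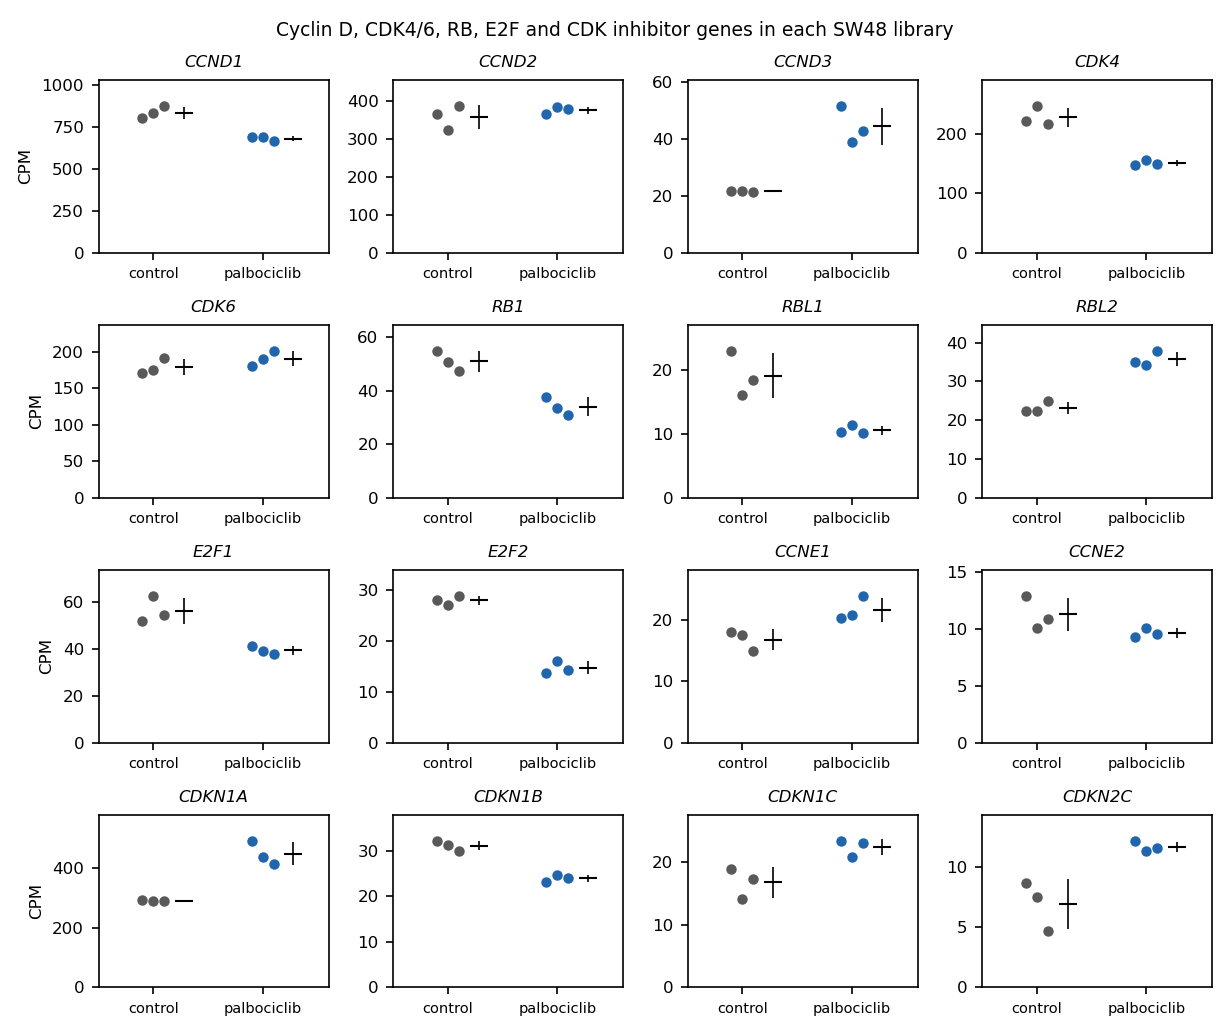
CPM (vertical axes, each from 0) of 16 genes of the CDK4/6 axis in each SW48 library: grey points are the 3 controls, blue points the 3 palbociclib libraries, and the cross beside them is the mean with its SD. CCND2, CDK6 and CCNE2 overlap between groups, and the CDK4, RB1, E2F1 and E2F2 points with the drug all lie below the controls.

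Genes that build the replication machinery fell together. In the licensing list, which covers loading of the MCM helicase at origins, 21 of 24 genes fell, none rose and the median was −0.59, against 29.2% of all genes falling. GMNN, the licensing inhibitor geminin, was at 55.9, 52.7 and 49.8 CPM in controls and at 22.2, 17.4 and 21 CPM with palbociclib (−1.39, SE 0.1, adjusted p = 3.4e-08). CDC6, the helicase loader, went from 105, 108 and 110 CPM to 55.8, 51.5 and 43.3 CPM (−1.1, SE 0.09), and MCM10 from 82.6, 75.1 and 79.6 CPM to 42.1, 42.1 and 37.1 CPM (−0.97, SE 0.08). The helicase subunits MCM2, MCM3, MCM4, MCM6 and MCM7 fell by 0.49 to 0.84, but MCM5 did not pass (0.06), and neither did GINS1 or ORC3.

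At the replication fork the median was −0.51, with 22 of 31 genes falling and 5 rising. POLD3, a subunit of polymerase delta, fell from 66.9, 61.6 and 64.5 CPM to 26.3, 35.8 and 35.8 CPM (−0.98, SE 0.1). RFC4, a clamp loader subunit, fell from 69.5, 64.3 and 76.8 CPM to 35.8, 38.3 and 41.6 CPM (−0.87, SE 0.09). PRIM1, the catalytic primase subunit, had the largest fall of the list, at 22, 18.7 and 22.3 CPM against 4.48, 3.13 and 2.77 CPM (−2.59, SE 0.18, adjusted p = 2.9e-08). The sliding clamp PCNA fell by 0.6 and the maintenance methyltransferase DNMT1 by 0.62. The 5 genes that rose were LIG1, the replicative ligase (0.55), POLD1, POLD4, POLE and RPA1, so POLE and POLD1, the catalytic subunits of 2 replicative polymerases, went the other way from POLD3 and the primase. Without control replicate 3 or palbociclib replicate 1, 3 of the list rose.

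Deoxynucleotide synthesis was mixed, with 6 of 13 genes falling, 2 rising and a median of 0.05. RRM2, the S-phase subunit of ribonucleotide reductase, fell from 94.9, 83.1 and 86 CPM to 63.8, 61 and 58 CPM (−0.53, SE 0.08). TK1 rose by 0.22 and NME1 by 0.43, and TYMS had too few counts to be tested. Without control replicate 3 or palbociclib replicate 1, only 1 of the list rose. In homologous recombination and Fanconi anaemia repair 16 of 21 genes fell, none rose and the median was −0.74. BRCA1 went from 61.5, 52.2 and 62.2 CPM to 21.7, 16 and 24 CPM (−1.51, SE 0.12), and BRCA2 fell by 1.37. FANCD2, FANCG, FANCB, FANCA and RAD54L did not pass, although 1 gene of the list rose without control replicate 3.

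Mitotic genes fell as well. Of 28 mitotic kinases, cyclins and regulators of the anaphase-promoting complex 17 fell and 2 rose (median −0.44), and of 42 genes for kinesins, kinetochores, spindle and condensin 29 fell and 2 rose (median −0.48). CKS1B, a small CDK-binding protein, went from 213, 233 and 212 CPM to 103, 108 and 102 CPM (−1.07, SE 0.07, adjusted p = 7.1e-09). AURKB, the kinase of the chromosomal passenger complex, was at 134, 136 and 128 CPM and then at 71.7, 61.3 and 68.4 CPM (−0.98, SE 0.08). NDC80, an outer kinetochore protein, fell from 73.9, 71.1 and 77.6 CPM to 27.3, 25.4 and 24 CPM (−1.54, SE 0.08, adjusted p = 1.3e-09). HMMR, a spindle protein, fell by 1.04 and KIF2C, a microtubule-depolymerising kinesin, by 0.85. Other classical mitotic transcripts moved little: TOP2A fell by 0.43, MKI67 by 0.37 and CCNB1 by 0.29, and CDC20, UBE2C, PTTG1, CENPE, DLGAP5, TTK and MYBL2 did not pass. FZR1, which activates the anaphase-promoting complex in G1, rose by 0.73, and CKS2, INCENP and CDCA3 rose by 0.47 to 0.55.

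Promoters of these genes were searched for 3 spellings of the E2F site (TTTCCCGC, TTTGGCGC and TTTCGCGC) and 2 of the cell-cycle homology region or CHR (TTTGAA and TTTAAA), on both strands of the 250 bases before each RefSeq start in GRCh38.p14. An E2F spelling was present for 8 of 21 licensing genes with a listed promoter (38.1%) and 9 of 28 fork genes (32.1%), against 4.84% of 9137 tested genes and 2.85% of all 27305 genes listed. A CHR spelling was present for 25 of 37 kinesin and kinetochore genes (67.6%) and 13 of 22 mitotic regulators (59.1%), but also for 7 of 14 MEK/ERK output genes (50%), against 19% of tested genes. These shares count every tested list member with a promoter, whatever its change. Over all tested genes an E2F spelling was present for 6.38% of those that fell and 3.68% of those that rose. For the CHR the shares were 20.3% and 17.3%. The TTTAAA form is its own reverse complement. Among the homologous recombination genes the E2F spellings were in none of 17 windows, and no more is drawn from their absence. The lines below show 30 bases around the match, 5′ to 3′ on the gene's strand with the match in capitals, for 3 E2F and 2 CHR genes that fell. They come from chr20:33686387-33686416 (minus strand) for E2F1, chr6:24775322-24775351 (plus) for GMNN, chr3:48188443-48188472 (minus) for CDC25A, chr16:23678848-23678877 (plus) for PLK1 and chr5:69167108-69167137 (plus) for CCNB1.
E2F1: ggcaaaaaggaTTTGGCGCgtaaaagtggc
GMNN: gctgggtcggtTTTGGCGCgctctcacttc
CDC25A: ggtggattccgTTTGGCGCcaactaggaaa
PLK1: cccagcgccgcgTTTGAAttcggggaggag
CCNB1: agcagtgcggggTTTAAAtctgaggctagg

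Genes of the amino acid response had the lowest median among the gene lists. As background, ATF4 is a transcription factor made when amino acids are short or the endoplasmic reticulum is stressed, and also when mTORC1 is active, and it switches on genes for amino acid synthesis, uptake and tRNA charging. In the list of ATF4 with stress response regulators 17 of 18 tested genes fell, none rose, and the median was −2.53. ATF4 itself was at 872, 942 and 1010 CPM in controls and at 281, 281 and 258 CPM with palbociclib (−1.79, SE 0.07, adjusted p = 5e-11). DDIT4, which inhibits mTORC1, went from 869, 920 and 843 CPM to 40.1, 39.5 and 31.1 CPM (−4.57, SE 0.09). CHAC1, a glutathione-degrading enzyme, went from 470, 557 and 479 CPM to 21.9, 29.4 and 28.6 CPM (−4.24, SE 0.11). The treated libraries of DDIT4 and CHAC1 lay far below every control. ATF3, a stress transcription factor, fell from 41.9, 50.1 and 43 CPM to 3.47, 3.58 and 2.29 CPM (−3.84), and DDIT3, encoding CHOP, from 275, 282 and 281 CPM to 30.3, 27.7 and 31.1 CPM (−3.23). TRIB3 (−2.96), VEGFA (−2.97), CEBPB (−2.69) and SESN2 (−2.38) also fell, and KLHL24 did not pass (−0.14).

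The synthesis genes for serine, one-carbon units, proline and asparagine fell in 16 of 19 cases with none rising (median −1.63). PCK2, the mitochondrial phosphoenolpyruvate carboxykinase, was at 190, 152 and 190 CPM and then at 11.2, 16.3 and 15.4 CPM (−3.63, SE 0.13). ASNS, asparagine synthetase at chr7:97851677-97928441, was at 708, 652 and 799 CPM and then at 61.2, 67.4 and 63.3 CPM (−3.49, SE 0.08, adjusted p = 5e-13). PSAT1, the serine pathway aminotransferase, went from 1120, 1070 and 1180 CPM to 177, 201 and 180 CPM (−2.59, SE 0.07). The serine pathway thus fell at each of its steps, PHGDH by 1.78, PSAT1 as given and PSPH by 2.3. Mitochondrial MTHFD2 fell by 2.26 and SHMT2 by 1.48, while cytosolic SHMT1 did not pass (−0.14) and MTHFD1 fell by 0.5. Of the proline genes PYCR1 fell by 0.73 and ALDH18A1 did not pass.

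Among amino acid transporters 10 of 13 fell and 2 rose (median −1.44). SLC7A11, the cystine importer, was at 190, 179 and 203 CPM in controls and at 32.4, 36.9 and 38.1 CPM with the drug (−2.41, SE 0.08). SLC6A9, a glycine transporter, fell by 2.87, SLC7A1, for cationic amino acids, by 1.9, and SLC7A5 with its partner SLC3A2, the large neutral amino acid carrier, by 1.75 and 1.24. The 2 that rose were SLC36A1, which exports amino acids from lysosomes (0.79), and SLC7A6 (0.52). Of 20 cytosolic aminoacyl-tRNA synthetases 15 fell and 3 rose (median −1.24). WARS, for tryptophan, went from 605, 644 and 604 CPM to 147, 132 and 134 CPM (−2.17, SE 0.07, adjusted p = 5.1e-12). YARS fell by 1.96, GARS by 1.82 and TARS by 1.79. QARS, for glutamine, rose from 126, 125 and 115 CPM to 209, 205 and 206 CPM (0.76, SE 0.06), and FARSA and VARS rose by 0.31 and 0.22, while FARSA's partner subunit FARSB fell by 1.38.

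The C/EBP-ATF response element, or CARE, which ATF4 binds with a C/EBP partner, was searched as TGATGNAA on both strands. It was found for 4 of 16 genes of the ATF4 list (25%) and 3 of 12 of the synthesis list (25%), 2 of 12 tRNA synthetases (16.7%) and 1 of 12 transporters (8.33%). All tested genes with a promoter held it in 2.21% of cases, those that fell in 2.85% and those that rose in 1.73%. The 4 windows below carry it within the promoters of genes that fell, at chr7:97872458-97872487 (minus) for ASNS, chr15:40953251-40953280 (plus) for CHAC1, chr19:33374060-33374089 (plus) for CEBPG and chr1:212565205-212565234 (plus) for ATF3. In CHAC1 the capitals are the reverse complement of the motif. A match is a description of the letters and not of binding.
ASNS: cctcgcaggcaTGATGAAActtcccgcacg
CHAC1: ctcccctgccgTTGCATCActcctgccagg
CEBPG: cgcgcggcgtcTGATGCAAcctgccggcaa
ATF3: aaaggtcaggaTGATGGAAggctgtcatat

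**Figure D3:**
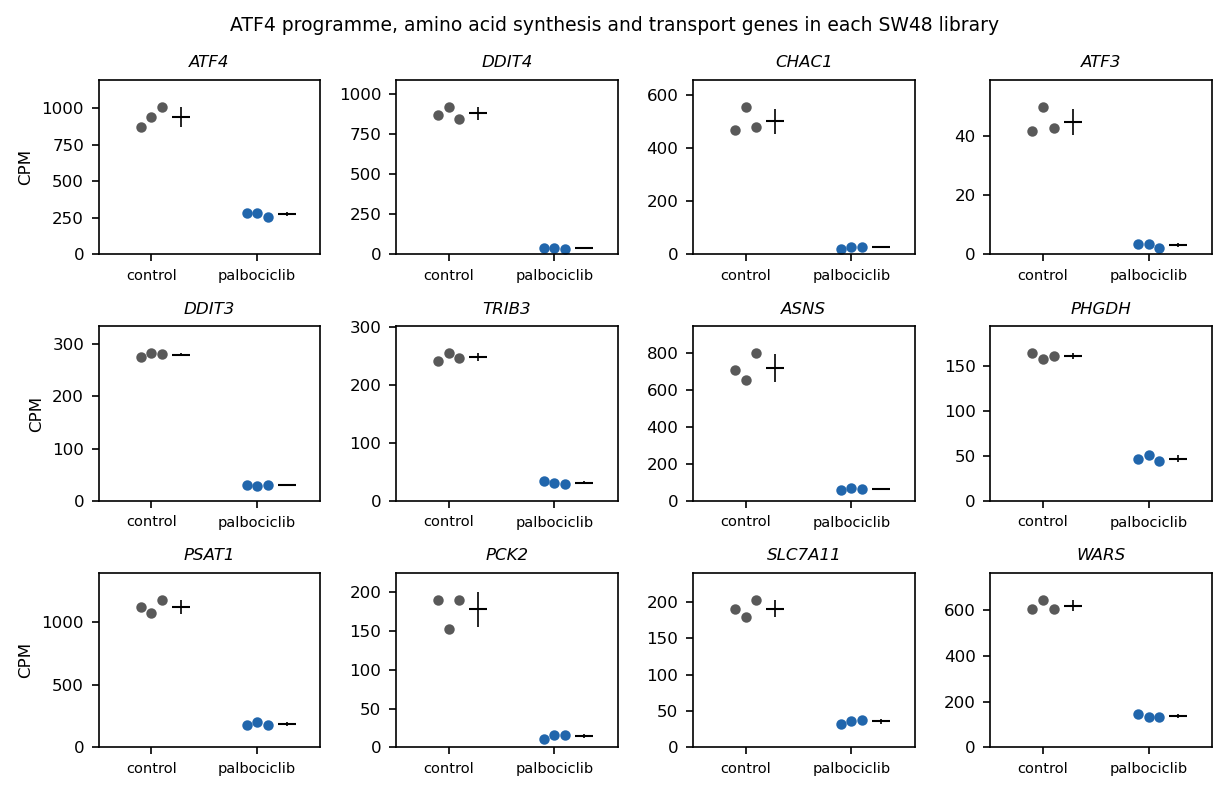
CPM (vertical axes, each from 0) of 12 genes of the ATF4 programme, amino acid synthesis, transport and tRNA charging in each SW48 library, with grey points for controls, blue points for palbociclib and crosses for mean and SD. In all 12 panels the 3 treated libraries lie far below the 3 controls, from 872 or more to 281 or less for ATF4 and from 604 or more to 147 or less for WARS.

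The chaperones of the endoplasmic reticulum, which answer to the other branches of the unfolded protein response, split evenly, with 8 of 18 rising, 8 falling and a median of −0.08. HERPUD1, a degradation factor, fell from 177, 165 and 182 CPM to 71, 77.5 and 81.1 CPM (−1.19, SE 0.07), and XBP1, a regulator of the response, fell by 1.16. HSPA5, the chaperone BiP, fell by 0.49. SDF2L1, a BiP co-factor, rose from 63.8, 72.1 and 59.8 CPM to 157, 143 and 148 CPM (1.19, SE 0.08), and the lectin chaperone CALR rose by 0.96 and the disulfide isomerase PDIA4 by 0.59. PDIA3 and PDIA6 rose by 0.33 and 0.26, and SEL1L and DNAJB9 fell by 1.05 and 0.9.

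Growth factor signalling genes fell more often than they rose. MEK/ERK output genes, transcripts that follow activity of that kinase cascade, fell in 12 of 22 cases and rose in 6 (median −0.53). FOSL1, an AP-1 subunit, was at 97.4, 99.2 and 104 CPM and then at 26.1, 25.4 and 23.4 CPM (−2, SE 0.08, adjusted p = 5.1e-11). EGR1 went from 1030, 1100 and 1150 CPM to 392, 400 and 402 CPM (−1.46, SE 0.06). The feedback phosphatase DUSP6 fell by 0.76 and ETV5 by 1.01. The feedback inhibitors DUSP4, SPRY1 and SPRY4 rose by 0.44 to 0.45, and SPRY2 did not pass. Without control replicate 1, control replicate 2 or palbociclib replicate 3, 3 of the list rose.

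Of 18 immediate early genes 12 fell and 2 rose (median −0.58). JUN fell from 184, 202 and 219 CPM to 43.7, 41.9 and 45.4 CPM (−2.21, SE 0.08, adjusted p = 3.5e-11), BTG1, an antiproliferative co-factor, by 1.71 and EGR3 by 1.46, whereas JUNB rose by 0.39 and BTG2 by 0.66. In the EGF family 7 of 11 genes fell and 2 rose (median −0.84). ERRFI1, which inhibits the EGF receptor, went from 115, 156 and 143 CPM to 19.8, 17.4 and 16.6 CPM (−2.94, SE 0.12). The ligand EREG went from 114, 148 and 145 CPM to 21.3, 22.5 and 26.4 CPM (−2.54, SE 0.11), and AREG fell by 1.75, BTC by 1.08 and HBEGF by 0.84. The receptor ERBB2 rose by 0.66 and the ligand TGFA by 0.89, and EGFR (−0.08) and ERBB3 (0.08) did not pass.

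Insulin signalling and FOXO feedback genes were divided, with 5 of 18 rising and 6 falling (median −0.04). SESN3, a FOXO target that restrains mTORC1, rose from 16.1, 13.6 and 16.2 CPM to 73.9, 80.2 and 78.3 CPM (2.34, SE 0.09, adjusted p = 5e-11), and FOXO4 rose by 1.92. The adaptors IRS2, from 236, 261 and 284 CPM to 102, 115 and 104 CPM (−1.28, SE 0.08), and IRS1 (−1.17) fell, as did FOXO3 (−1.22). In the MYC and MAX network 6 of 12 genes fell and 2 rose (median −0.29). MYC was at 202, 228 and 221 CPM and then at 74.8, 91.6 and 91.7 CPM (−1.33, SE 0.08, adjusted p = 8.2e-09). Its antagonist MXD4 rose from 20.2, 21.8 and 18.2 CPM to 118, 106 and 111 CPM (2.47, SE 0.09), and MXD3 rose by 1.09, while a further antagonist, MXI1, fell by 1.08.

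Ribosome biogenesis genes fell in 22 of 28 cases and rose in 2 (median −0.54). NOP58, a box C/D nucleolar protein, went from 614, 594 and 666 CPM to 242, 255 and 247 CPM (−1.33, SE 0.06, adjusted p = 3.6e-10), MRTO4 fell by 1.24, nucleophosmin NPM1 by 0.97 and nucleolin NCL by 0.73. UBTF and BOP1 rose by 0.33 and 0.27, and 1 of the list rose without control replicate 3 or palbociclib replicate 1. The cytosolic ribosomal protein genes showed no such direction, with 16 of 42 rising, 10 falling and a median of 0.02. RPS7 fell by 0.87 and RPL7A rose by 0.69, the ends of the list, and these genes have many processed pseudogenes that may share reads.

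Lysosomal genes rose together. Of 29 tested hydrolases and membrane proteins 26 rose, 2 fell and the median was 0.76, against 28.3% of all genes rising. SMPD1, acid sphingomyelinase, went from 11.1, 10.4 and 11.2 CPM to 54.8, 47.1 and 54.3 CPM (2.26, SE 0.1, adjusted p = 3.3e-10). NPC2, a cholesterol carrier of the lysosome, rose from 72.5, 72.5 and 70.2 CPM to 249, 238 and 236 CPM (1.75, SE 0.06). GRN, progranulin, rose from 240, 243 and 221 CPM to 712, 622 and 598 CPM (1.45, SE 0.07). NEU1, HEXA, CTSD, LAMP1 and PSAP rose by 0.49 to 1.25, and NPC1 and GUSB fell by 0.41 and 0.31.

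Autophagy and proton pump genes rose in 19 of 29 cases and fell in 5 (median 0.44). The pump subunit ATP6V0A1 went from 35, 38.7 and 33.4 CPM to 86.3, 75.1 and 72.1 CPM (1.13, SE 0.09), and ATP6V1A rose by 1.11. GABARAP, an autophagosome protein, rose from 69.5, 55.3 and 60.2 CPM to 161, 147 and 132 CPM (1.25, SE 0.09). MAP1LC3B fell by 0.91, the cargo receptor SQSTM1 by 0.52 and the regulator MITF by 0.82, and its relatives TFEB and TFE3 did not pass.

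Cholesterol synthesis genes rose in 17 of 25 cases with none falling (median 0.61). MVK, mevalonate kinase, went from 12, 13.9 and 12.2 CPM to 35.1, 33.6 and 34 CPM (1.43, SE 0.11), and INSIG1, a sterol sensor partner, from 25.1, 26.3 and 28.3 CPM to 72.5, 70.1 and 65.7 CPM (1.39, SE 0.08). Fatty acid synthesis genes were divided, 4 of 11 rising and 3 falling, with FASN up by 0.69 and SCD down by 0.21.

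Glycolysis genes rose in 12 of 20 cases and fell in 5 (median 0.34). PKM, pyruvate kinase, went from 1370, 1490 and 1360 CPM to 2640, 2810 and 3050 CPM (1.01, SE 0.07, adjusted p = 1e-08), ALDOC rose by 1.97 and SLC2A3, a glucose transporter, by 0.9. HK2, the entry hexokinase, fell from 51.6, 61.1 and 69.3 CPM to 31.3, 33.1 and 23.6 CPM (−1.05, SE 0.12), and PDK1 fell by 1.05, ENO1 by 0.6 and SLC2A1 by 0.34. Nuclear-coded oxidative phosphorylation genes rose in 22 of 36 cases and fell in 2 (median 0.31), with NDUFA2 up by 0.94 and NDUFA4 by 0.82. Without control replicate 1, control replicate 3 or palbociclib replicate 3, 1 of the list fell. Mitochondrial RNA shares were higher in the same libraries, as given above, and their part in this was not tested.

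Among ID factors and BMP/TGF-beta feedback genes 8 of 14 rose and 1 fell (median 0.25). ID3, an inhibitor of basic helix-loop-helix factors, went from 271, 203 and 206 CPM to 1270, 1250 and 1200 CPM (2.45, SE 0.09, adjusted p = 5e-11), and ID1 from 344, 324 and 290 CPM to 725, 679 and 674 CPM (1.12, SE 0.07). ID2 rose by 0.3 and SMAD6, an inhibitor of BMP signalling, by 1.05. WNT feedback and stem cell genes were divided, 7 of 16 rising and 6 falling. NKD1 (1.38), NOTUM (0.72) and AXIN2 (0.36) rose, while ASCL2, the stem cell factor, fell from 26.9, 25.9 and 22.2 CPM to 7.29, 5.25 and 4.34 CPM (−2.15, SE 0.17, adjusted p = 8.9e-08).

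Intestinal differentiation genes rose in 6 of 10 cases and fell in 2 (median 0.67), and another 16 of the 26 listed had too few counts for a test. CDX2, the intestinal identity factor, rose from 108, 96 and 96.6 CPM to 156, 177 and 159 CPM (0.71, SE 0.08). MUC13 rose by 2.73 and VIL1, villin, by 4, but VIL1 rested on 0, 6 and 0 counts in controls and 28, 47 and 21 with the drug. VIL1 was therefore kept for testing only through the treated libraries. It is among the 6 that rose, and the count and median of the list include it. KLF5, a crypt proliferation factor, fell from 1010, 1150 and 1100 CPM to 417, 399 and 405 CPM (−1.41, SE 0.06).

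Interferon-stimulated genes rose in 15 of 26 cases and none fell (median 0.68). IFI6 went from 17.5, 15 and 17.2 CPM to 55.3, 57.3 and 69.9 CPM (1.88, SE 0.11, adjusted p = 3.5e-09), ISG15, a ubiquitin-like modifier, from 8.36, 9.89 and 8.77 CPM to 33.3, 28.8 and 28.4 CPM (1.74, SE 0.13), and STAT2, which carries the interferon signal, rose by 1.53. The sensors IFIH1 and DDX58 and the factor IRF7 did not pass, and 1 of the list fell without palbociclib replicate 1. MHC class I presentation genes rose in 12 of 15 cases and 1 fell (median 0.48), with B2M from 255, 227 and 245 CPM to 385, 370 and 406 CPM (0.68, SE 0.06), TAPBP up by 1.03 and TAP1 by 0.97. HLA-B and HLA-C rose by 0.43 and 0.49, and reads of these near-identical genes can be shared. The gene that fell was ERAP1 (−0.49), and none fell in any fit with 1 SW48 library left out. Of 10 DNA methylation and silencing genes 4 fell and 1 rose. The histone methyltransferase EZH2 fell by 1.12, UHRF1, which recruits DNMT1, by 0.93, DNMT1 by 0.62 and TET3 by 0.76. TET2 rose by 0.33, and the number that rose ranged from 0 without control replicate 1 to 3 without control replicate 2, with 2 without palbociclib replicate 2.

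Of 24 p53 target genes 10 rose and 7 fell (median 0.27). TP53I3, a redox enzyme (1.03), ZMAT3 (0.93), CCNG1 (0.72) and DDB2 (0.6) rose. SESN2 and GDF15, which the ATF4 list holds too, fell by 2.38 and 1.39, and the death receptor TNFRSF10B fell from 177, 193 and 194 CPM to 64.7, 69.2 and 77 CPM (−1.42, SE 0.08). MDM2, a direct target, fell by 0.2. In the BCL2 family 4 of 13 genes rose and 5 fell. PMAIP1, the BH3-only protein NOXA, went from 91.3, 96.3 and 102 CPM to 25.1, 28.5 and 23.1 CPM (−1.91, SE 0.09), BBC3 fell by 0.79 and BCL2 by 1.06, while BAD rose by 1.05, BAX by 0.9 and BCL2L1 by 0.31.

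In the list of senescence-associated secretion and lamins 7 of 10 tested genes fell and 2 rose. HMGB2 went from 348, 358 and 355 CPM to 129, 130 and 134 CPM (−1.43, SE 0.06, adjusted p = 1.1e-10), LMNB1, lamin B1, fell by 0.81, and TIMP1 rose by 1.03 and MMP1 by 2.78, the latter from under 1 CPM in controls. The secreted factors IL6, IL1A, IL1B and CXCL1 had too few counts to be tested. NRF2 and antioxidant genes were divided, 7 of 17 rising and 7 falling, with FTH1 down by 1.75 and SRXN1 by 1.05 but HMOX1 up by 1.21. Of 13 tubulin genes 4 rose, 2 fell and 7 did not pass (median 0.14). Among them TUBA1A rose by 1.3 and TUBB3 by 0.95, and TUBE1 fell by 1.79.

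The response was set beside that of SW620 by a test of the difference between the 2 drug effects, which shares no library between them. Of 14098 genes tested 25.7% had a different effect, 1574 (11.2%) with the more positive effect in SW48 and 2052 (14.6%) with the more negative one. In SW620 alone 35% of 13068 genes passed, 17.6% higher and 17.4% lower. Over the 11699 genes tested in both lines, 1214 rose in both, which is 36.4% of the 3334 that rose in SW48 and 59.7% of the 2033 that rose in SW620. Another 1331 fell in both, 37.5% of those that fell in SW48 and 62.8% of those that fell in SW620, and 391 passed in opposite directions. Across genes, which are not independent replicates, the log2 fold changes of the lines had a Pearson correlation of 0.45.

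Of the D-type cyclins, 2 differed between the lines. CCND1 rose in SW620, from 2932, 2581 and 3486 counts to 9885, 10002 and 10067 counts (1.57, SE 0.07), where it fell in SW48, a difference of −1.88 (SE 0.08, adjusted p = 3.5e-09). CCND2 rose in SW620 from 92, 94 and 102 counts to 737, 664 and 660 counts (2.67, SE 0.12) and did not pass in SW48 (difference −2.62, SE 0.13, adjusted p = 3.5e-09). CCND3 rose in both lines, by 1.04 and 0.94, and the difference did not pass (0.09, SE 0.15). CDKN1A was at 8, 9 and 3 counts in SW620 controls and at 350, 26 and 63 counts with palbociclib, a wide spread (4.26, SE 0.97), and its difference passed (−3.66, SE 1.07, adjusted p = 0.019). CDKN1C fell in SW620 by 1.31 and rose in SW48, a difference of 1.71 (SE 0.19), and CDKN2C differed by 1.27 (SE 0.28). The smaller differences of CCNE1 (−1.01), CDC25A (−0.87), CDK4 (−0.76) and RB1 (−0.71) also passed, and those of E2F1, E2F2, CCNE2 and RBL1 did not.

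Among the gene lists, replication licensing had the more negative effect in SW48 for 10 of 24 genes and the more positive effect for none. The kinesin and kinetochore list had 2 of 42 with the more negative and 9 with the more positive effect, and 37 of the 42 fell in SW620. ATF4 list genes fell in SW620 for 16 of 20 tested, with a median of −1.63, and 15 of 20 had the more negative effect in SW48. MEK/ERK output genes rose in SW620 for 10 of 21 tested and fell for 1, and 13 of 22 had the more negative effect in SW48. The SW620 counts are read against the 17.6% of all genes that rose and the 17.4% that fell in that line. Listed genes that passed in opposite directions, with a difference of at least 2-fold and a mean log2 CPM of at least 4, numbered 22. Of these 15 fell in SW48 and rose in SW620, among them EREG (difference −3.69), PLAUR, the urokinase receptor (−2.8), JUN (−2.6) and PMAIP1 (−2.52), and 7 went the other way, among them LIG1 (1.05), CDX2 (1.08) and BMP7 (1.29).

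The largest differences over all genes were taken among those past the threshold at a mean log2 CPM of 4 or more, whatever their directions. They included PRSS22, a serine protease, with 863, 1408 and 1051 counts in SW48 controls and 284, 282 and 287 with the drug. In SW620 PRSS22 had 4, 5 and 11 counts and then 87, 56 and 49 (difference −4.97, SE 0.4, adjusted p = 4.9e-07). HKDC1 fell in both, further in SW48 (−3.84). CALHM3 (3.91), VIL1 (3.43), NUDT1 (3) and AKR1C3 (2.89) had the more positive effect in SW48, where each control library held 27 or fewer counts of them. FAM129A (−8.36), DCLK1 (−4.83), PEG10 (−4), PCDH19 (5.09) and MYH7B (5.07) passed too, but each had 6 or fewer counts in every control library of 1 line, so their differences rest on few counts. PEG10 lost its call with DESeq2 (−3.18, adjusted p = 0.065) and without control replicate 2 of SW48 (−3.31, adjusted p = 0.16). It also lost it without any 1 of the palbociclib libraries of SW48 (adjusted p 0.083 to 0.087) and without palbociclib replicate 3 of SW620 (adjusted p = 0.05). PCDH19 lost it without palbociclib replicate 1 (4.72) or 3 (4.69) of SW48, both at an adjusted p of 0.056.

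**Figure D4:**
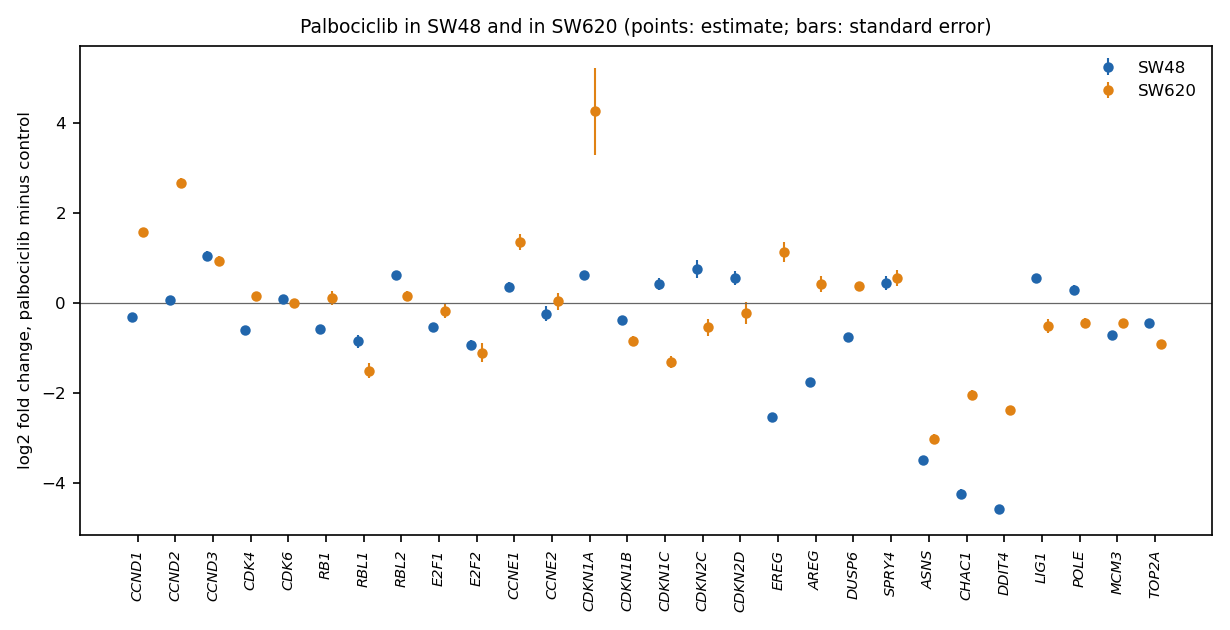
Log2 fold change of palbociclib against control (vertical axis) in SW48 (blue) and SW620 (orange) for 28 genes along the horizontal axis, with bars for the standard error. CCND1 and CCND2 stand at −0.3 and 0.07 in SW48 and at 1.57 and 2.67 in SW620, and ASNS, CHAC1 and DDIT4 lie below 0 in both lines.

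Palbociclib and trametinib were compared directly in SW48, without the controls. Of 12807 genes tested 41.9% differed, 2680 (20.9%) higher and 2688 (21%) lower with palbociclib. Against control, trametinib alone passed for 60.1% of 12688 genes. The kinesin and kinetochore list was lower with palbociclib for 40 of 42 genes and higher for none (median −0.85), and mitotic regulators were lower for 23 of 28 (median −0.64). Against the controls that both drugs share, TOP2A was at −0.43 with palbociclib and 0.72 with trametinib, and the direct difference was −1.16 (SE 0.06, adjusted p = 5.2e-09). MKI67 stood at −0.37 and 0.78 (difference −1.15, SE 0.08) and CENPF at −0.62 and 0.43 (−1.05, SE 0.06). Licensing genes were lower with palbociclib for 17 of 24, fork genes for 23 of 31 and homologous recombination genes for 15 of 21.

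MEK/ERK output genes went the other way, higher with palbociclib for 19 of 22 and lower for none (median 1.55). PHLDA1, an ERK-induced gene, stood at −0.67 with palbociclib and −3.87 with trametinib (difference 3.21, SE 0.07, adjusted p = 1.8e-12), and DUSP6 at −0.76 and −2.5 (1.73, SE 0.07). CCND1 stood at −0.3 and −1.86 (1.56, SE 0.05), and CDKN1A at 0.62 and −1.45 (2.07, SE 0.08). The ATF4 programme was low with both drugs: DDIT4 stood at −4.57 and −5.24 (0.67, SE 0.12), ASNS at −3.49 and −4.07 (0.57, SE 0.07) and ATF4 at −1.79 and −2.3 (0.52, SE 0.07). Of 17 ATF4 list genes 11 were higher with palbociclib than with trametinib and 2 lower. The largest direct differences upward were KRT16, a stress keratin (4.86), DCLK1 (4.75), PHLDA1 as given, GDF15 (3.02), CD55 (2.95) and AREG (2.89), and downward PRR15L (−2.28), LIPH, a lipase (−1.73), ZNF185 (−1.7), NAALADL2 (−1.65), LTBP1 (−1.64) and C1orf21 (−1.62).

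**Figure D5:**
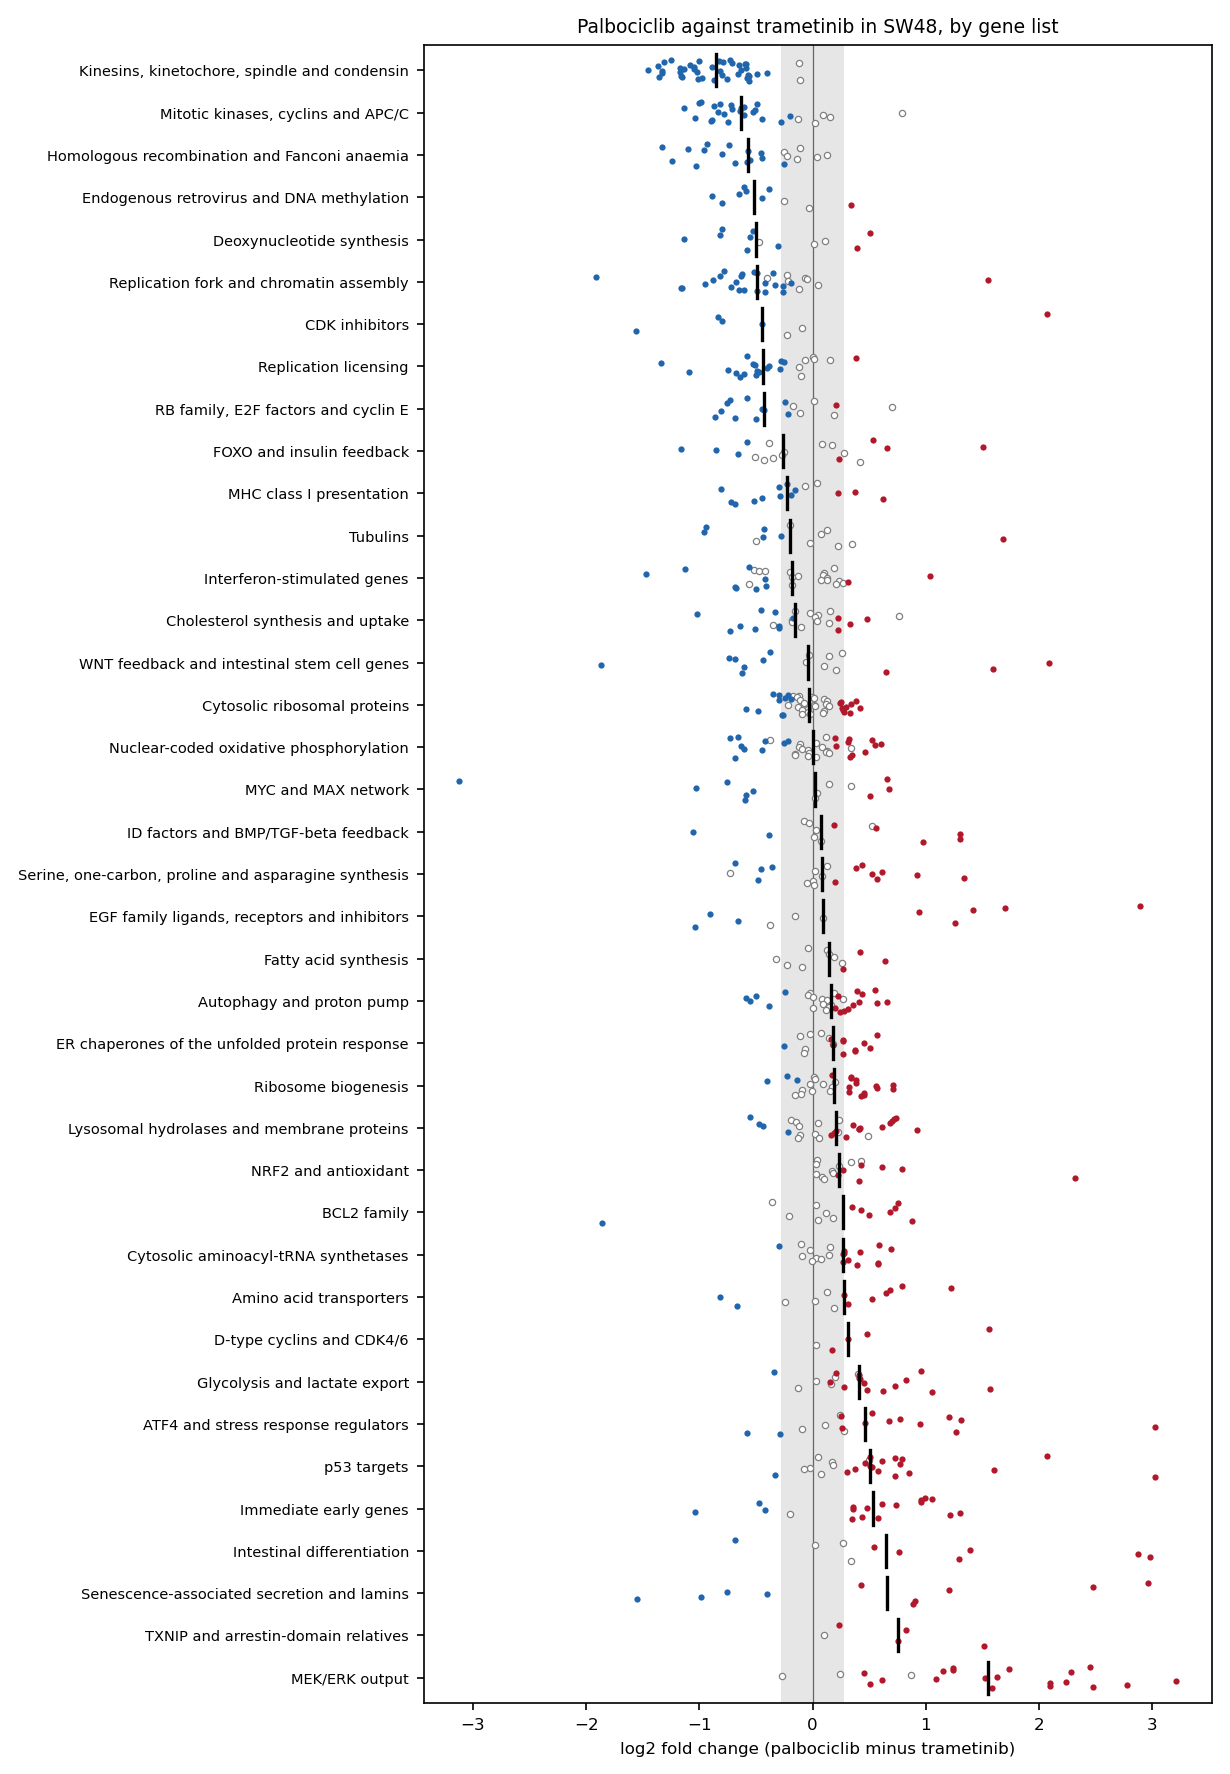
Log2 fold change of palbociclib against trametinib in SW48 (horizontal axis) for tested members of 39 gene lists, ordered by the list's median (black bar). Red and blue points are higher and lower with palbociclib past the threshold, open points did not pass, and the grey band spans the quartiles of all tested genes (−0.28 to 0.28); kinesin and kinetochore genes (median −0.85) and MEK/ERK output genes (1.55) form the ends.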

How the data were processed

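Gene counts were deposited by the authors as a table of 33119 genes from Lexogen QuantSeq 3′ libraries, per the labels' protocols. Trimmomatic, STAR, featureCounts and hg38 are named per the submitters' processing notes. Their versions, and the annotation and strand setting, are not given in those sources. Among the gene symbols 26 had turned into dates. A further 12 columns of the table, named as libraries of the series' first set, were not used. Counts were tested with edgeR 4.0.16 in R 4.3.3 (two-sided quasi-likelihood test, TMM scaling, genes kept by a minimum count of 10 and a total of 15, Benjamini-Hochberg adjustment over all genes tested, threshold 0.05). Only the groups compared entered each fit, and SW48 against SW620 as the difference of 2 effects. CPM used TMM-scaled totals, except for the marker sums, which used the plain library totals. Simulated counts for the SW48 comparison covered 12526 genes. Of changes of 1 on the log2 scale 89% were recovered, and of changes of 0.5 69%. Of the genes left unchanged 0.14% were called, which is not the share of calls that were false. For SW48 minus SW620 the recovered shares were 55.2% and 16.3%, and for palbociclib against trametinib 84.8% and 67.7%. In the SW48 simulation 100 genes were changed at each size, whereas 57.5% of genes passed in the real comparison. The simulated rates may therefore not carry over.

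The comparison and its 44 gene lists (861 entries) were chosen with earlier results of these data known. Genes named by rule were the 14 highest and 14 lowest of those past the threshold at an average log2 CPM of 4 or more and with no overlap between groups, any list member, and the 6 at each end of the other comparisons. Per-library values were given for up to 4 such members per list and all of the CDK4/6, RB and CDK inhibitor lists; PRIM1 and ASCL2 were added after their values were seen, and some genes that the rule names are not reported here. Promoters and positions came from RefSeq tables of GRCh38.p14, in which 9137 of the 12690 tested genes had a promoter. Alternatives were DESeq2 1.42.0 and its size factors, no count filter, all 18 libraries in 1 fit, a replicate block, robust dispersion, a fold limit, each library left out and, added after seeing the data, no mitochondrial ribosomal or transfer RNA.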

Additional observations from a re-analysis of the deposited data

Results flagged for a closer look

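The palbociclib effect differed between SW48 and SW620 by a test of the difference itself (edgeR, adjusted p under 0.05) for the genes below, given as SW48 minus SW620 on the log2 scale. Among growth signalling and stress genes that fell in SW48 and rose in SW620 were EREG (−3.69), PLAUR (−2.8), JUN (−2.6), PMAIP1 (−2.52), EMP1 (−2.5), BTG1 (−2.03), GDF15 (−1.89), HMGA2 (−1.79), IER3 (−1.76), KLF6 (−1.55), SLC2A1 (−1.53), TXNIP (−1.23), SQSTM1 (−1.21) and DUSP6 (−1.16). LIG1 (1.05), NOTUM (1.08), CDX2 (1.08), ETV1 (1.15), BMP7 (1.29) and FADS1 (2.15) rose in SW48 and fell in SW620. The rise of ETV1 in SW48 only just passed (0.64, SE 0.26, adjusted p = 0.049 by the edgeR test).

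Genes of the CDK4/6 axis that differed were CCND2 (−2.62), CCND1 (−1.88), CCNE1 (−1.01), CDC25A (−0.87), CDK4 (−0.76), E2F3 (−0.73), RB1 (−0.71), E2F6 (−0.67) and RBL2 (0.45). Among CDK inhibitors they were CDKN1A (−3.66), CDKN2B (−0.73), CDKN1B (0.45), CDKN2C (1.27) and CDKN1C (1.71). The size for CDKN1A is poorly known, with 8, 9 and 3 counts in SW620 controls and 350, 26 and 63 with palbociclib. Large differences over all genes tested in both lines included PRSS22 (−4.97), HKDC1 (−3.84), CALHM3 (3.91), VIL1 (3.43), NUDT1 (3) and AKR1C3 (2.89). The last 4 had 27 or fewer counts in each SW48 control library, which limits how well their size is known. The same holds for PRSS22, with 4, 5 and 11 counts in the SW620 controls.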

How the results depend on the processing

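Among the genes refitted by name, none that passed in either fit changed direction under the settings run. Genes outside that set were followed only as counts. Of the 7298 genes past the threshold in SW48, 6297 to 6597 passed again with the same sign when 1 library was left out. Under the other tools, scalings, filters and fits 6376 to 7266 did. With 1 library left out, 2879 to 3205 of 3626 did between the lines and 4207 to 4628 of 5368 between the drugs. The counts that follow also include genes that passed only in the changed fit. The count of genes past the threshold in SW48 was 6631 to 7503 over the other tools, scalings, filters and fits, against 7298. A limit of 1 on the absolute log2 fold change left 1540 genes in SW48 (901 higher, 639 lower), 985 for SW48 minus SW620 (478 and 507) and 735 for palbociclib against trametinib (416 and 319). Leaving out 1 library gave 6438 to 6961 genes in SW48 (higher 3071 to 3372, lower 3367 to 3589). It gave 2991 to 3513 between the lines (1302 to 1576 and 1542 to 2037) and 4306 to 4975 between the drugs (2170 to 2493 and 2136 to 2482). Without mitochondrial ribosomal and transfer RNA the split between the lines was 1802 higher and 1830 lower, against 1574 and 2052.

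Samples share only a replicate number: same-numbered controls and palbociclib libraries had correlations of 0.01, −0.26 and −0.01 in their deviations from the group means. With a replicate block 7204 genes passed in SW48, 3338 between the lines and 5292 between the drugs. Of 187 genes tested by name in SW48 179 kept their side of the threshold under all 13 settings run on them. The exceptions were ARRDC2, CCNE1, CDK2, CDKN1A, CDKN1C, CDKN2D, CDH1 and ELOVL6. Outside the lists of cell cycle kinases, RB and CDK inhibitors, the named genes were mostly chosen for large changes past the threshold. That choice favours stable calls, so the share does not stand for all tested genes. Between the lines PEG10 had an adjusted p of 0.053 with the block, and PCDH19 one of 0.098 with all 18 libraries in 1 fit. The cause was not tested.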

Other observations

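Gene families below were picked by symbol after their values were seen, so their counts describe these libraries only. Over all genes tested 28.3% rose and 29.2% fell. All 9 tested genes of the HOXB cluster, which set position along the body axis, rose (median 0.91). HOXB4 was at 19.9, 25.1 and 20.9 CPM in controls and at 67.4, 79.4 and 86.3 CPM with palbociclib (1.82, SE 0.11). Collagens rose in 8 of 9 cases, with COL7A1, of anchoring fibrils, up by 1.47 and COL17A1 down by 0.35. Among the 8, COL24A1 was at 0.22, 0.106 and 0 CPM in controls and at 1.35, 1.9 and 1.93 CPM with palbociclib. It was kept for testing only through the treated libraries, so its rise adds little to the count. The summed mesenchymal markers, which include COL1A1 of these collagens, were higher with palbociclib too, and their part in the collagen values was not tested. Tetraspanins rose in 10 of 17 cases and none fell. Of 12 heat shock genes 10 rose, with the constitutive chaperone HSPA8 up by 1.02, and HSPD1 and HSPA4 fell by 0.31 and 0.24. HSPA1B rose by 1.86, and its reads can be shared with a near-identical copy.

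Nucleoporins, the subunits of the nuclear pore, fell in 18 of 22 cases with none rising (median −0.48), NUP153 and NUP88 each by 1.01. RNA-binding hnRNP genes fell in 15 of 22 cases and 1 rose, with HNRNPH3 down by 1.29. KLF transcription factors fell in 8 of 13 cases and 1 rose. KLF9 was at 46, 55.9 and 59.3 CPM and then at 6.16, 10.8 and 9.4 CPM (−2.61, SE 0.16), and KLF11 fell by 2.28. Host genes of small nucleolar RNAs fell in 9 of 15 cases and rose in 4, with SNHG1 down by 1.9 and SNHG12 by 1.83.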
